A study of Homo sapiens with 4 samples.

Results

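The genes described here encode the nuclear subunits of the mitochondrial respiratory chain and of ATP synthase, measured in lung adenocarcinoma (LAD) cells with and without constitutively active AKT1. Members were taken from the GENCODE v44 annotation as protein-coding genes whose symbol starts with NDUFA, NDUFB, NDUFC, NDUFS or NDUFV, with UQCR, with COX4 through COX8, or with ATP5, and the genes SDHA, SDHB, SDHC, SDHD and CYC1 were added. The NDUFAF genes, which encode assembly factors and not subunits, were kept out. The rule found 91 of 60558 genes. By symbol, 40 were assigned to complex I, 4 to complex II, 10 to complex III, 17 to complex IV and 20 to complex V. This assignment follows the symbols and was not checked against the place of each protein. NDUFA4 and NDUFA4L2 are thus counted with complex I by name alone.

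Both cell lines, A549 and HCC827, come from human LAD and have long been in culture, and HCC827 is known for an activating EGFR deletion. Reads of the cells' own AKT1 and of the construct cannot be told apart. Each was transduced either with an empty vector, giving A549-vector and HCC827-vector, or with myr-AKT1, an AKT1 that a myristoyl anchor holds at the membrane and so keeps active, giving A549-myr-AKT1 and HCC827-myr-AKT1. RNA of each condition was sequenced as 1 library, so no difference within a line has a replicate check, and a difference between cultures cannot be told apart from the construct.

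The respiratory chain passes electrons from NADH through complex I, or from succinate through complex II, by way of ubiquinone to complex III, cytochrome c and complex IV, which reduces oxygen. Complexes I, III and IV pump protons across the inner membrane, and complex V, the ATP synthase, lets them flow back to make ATP. Most subunits are encoded in the nucleus and imported, and a small set of membrane subunits is encoded by the mitochondrial genome.

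The values are normalized counts, which are read counts divided by a size factor for each library, and a log2 fold change is the log2 ratio of myr-AKT1 to vector within a line. The size factors were set within each line, so normalized counts can be compared between the libraries of 1 line and not across the lines. Libraries held from 16322183 reads in HCC827-myr-AKT1 to 33530317 reads in A549-vector. AKT1, the transduced gene, was measured in A549 at 6297 normalized counts under myr-AKT1 and 4243 under vector, and in HCC827 at 4805 and 2175, higher in the myr-AKT1 library of both lines. Markers of cell types were summed in normalized counts, myr-AKT1 against vector. The 5 epithelial markers held 142807 against 172037 in A549 and 76398 against 148253 in HCC827, with 0 of them at or under the floor of 3 reads in any library. The 3 markers of the lung lineage held 43.5 against 41.9 in A549, where SFTPB was at 0, and 2895 against 5209 in HCC827. The 3 fibroblast markers held 808 against 83.8 in A549 and 186 against 48.5 in HCC827, nearly all of it COL1A1. The 3 endothelial markers held 137 against 13.1 and 138 against 76.3, and the 3 leukocyte markers 29.8 against 2.62 and 15.1 against 19.1, with CD3E at 0 in all 4 libraries. The part of these differences in the results was not tested. In bulk RNA, fewer cells with a transcript and less of it per cell cannot be told apart.

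A gene is called tested here when its normalized count averages 50 or more over the pair of libraries of a line, and 80 of the 91 members were tested in both lines. Between A549-myr-AKT1 and A549-vector, 2 members lay above a log2 fold change of 0.5, where 22.4% of the 13971 tested genes did, and 9 lay below -0.5, where 23.5% of the genes did. Between the HCC827 libraries, 1 member lay above 0.5 and 9 lay below -0.5, against 22.4% and 26.3% of 13098 genes. Thus 13.75% of the tested members in A549 and 12.5% in HCC827 passed the fold in either direction, and the corresponding shares of all genes were 45.8% and 48.7%. Among genes with a mean of at least 500, the shares were 39.8% in A549 and 44.6% in HCC827, beside 13.2% of the 76 members and 8.33% of the 72 members at that level.

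The subunit mRNAs lay in a narrow range around 0. Their log2 fold changes had a median of -0.11 and an interquartile range of 0.46 in A549, and a median of -0.15 with a range of 0.36 in HCC827. All tested genes had medians of -0.07 and -0.06 with interquartile ranges of 0.89 and 0.96. The narrow range was not particular to the members. It was 0.29 in A549 and 0.26 in HCC827 for the cytosolic ribosomal proteins, 0.38 and 0.35 for the TCA cycle and pyruvate dehydrogenase, and 0.32 and 0.42 for the mitochondrial ribosomal proteins. The other lists described below had wider ranges than the members in both lines. In A549, 54 of the 80 members lay below 0, and in HCC827 53 did, where 54.4% and 53.8% of all genes did. With size factors estimated over all 4 libraries, 41 members lay below 0 in A549 with a median of -0.012, and 49 in HCC827 with a median of -0.10, a scaling that shifted the median of all A549 genes by 0.10. Summed over the members, the share of reads was 0.670% with myr-AKT1 and 0.691% with vector in A549, and 0.579% with myr-AKT1 and 0.591% with vector in HCC827.

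**Figure D1:**
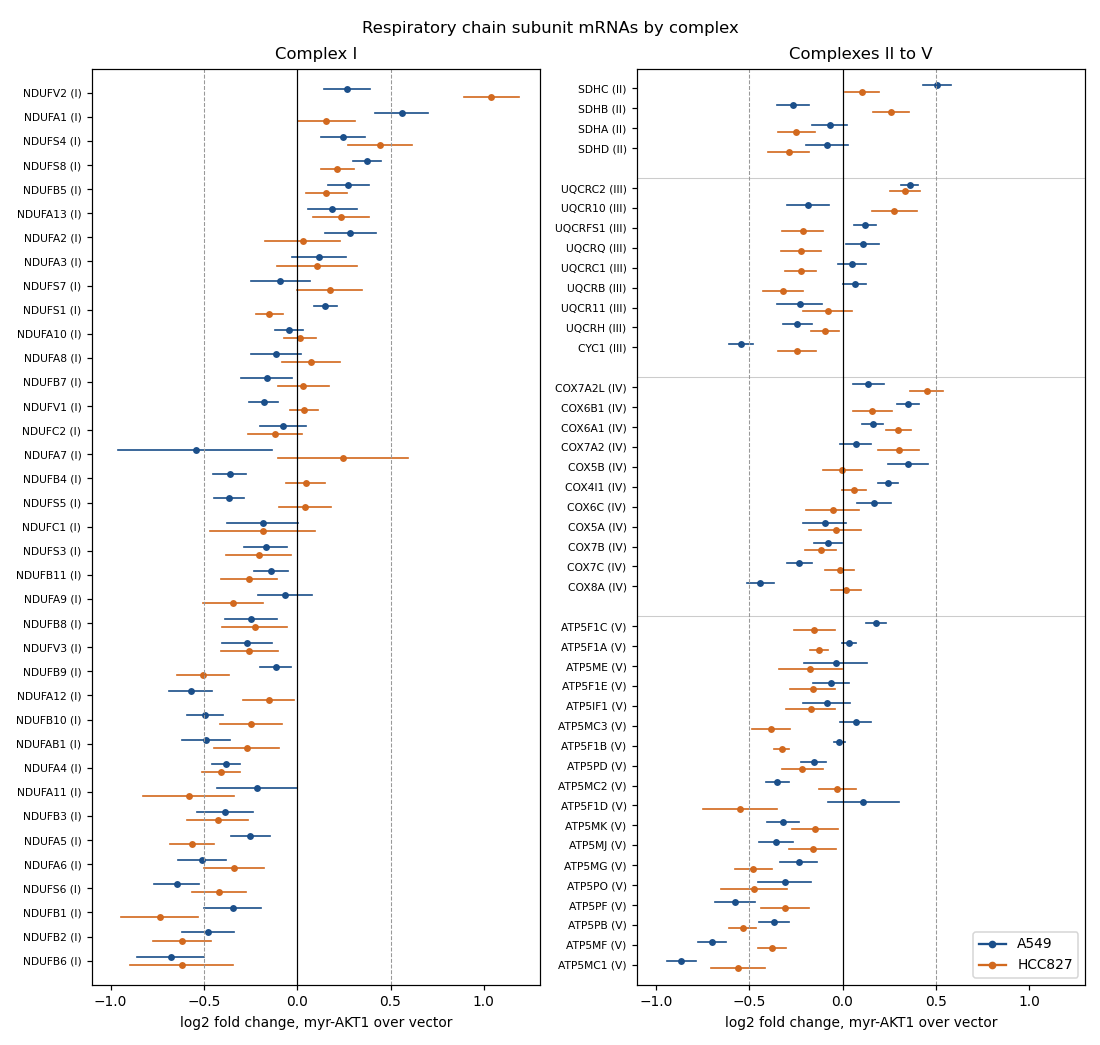
Log2 fold change, myr-AKT1 over vector, of the tested members, 1 of which is not drawn, with complex I on the left and complexes II to V on the right. Points are A549 (blue) and HCC827 (orange), bars are 95% counting intervals from the reads of 1 library per condition, and dashed lines mark 0.5 and -0.5. Most points lie between the dashed lines, NDUFV2 in HCC827 lies farthest to the right at 1.04, and ATP5MC1 in A549 farthest to the left at -0.86.

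The 95% Clopper-Pearson interval of the fold change, which covers counting error only and not the variation between cultures, excluded 0 for 59 of the 80 tested members in A549 and for 60 in HCC827, where it did for 79.1% and 79% of all tested genes. Its median reach among the members to either side was 0.09 and 0.12 on the log2 scale.

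Of the 80 tested members, ATP5MC1 and NDUFB6 were the 2 that lay below -0.5 in both lines, and NDUFV2 in HCC827 had the highest fold change. With total reads as the scaling, ATP5MC1 in HCC827 lay at -0.48, which leaves NDUFB6. The 250 bases of RefSeq sequence (GRCh38.p14) before the start of these 3 genes are printed because these genes had the most extreme values by that rule, and no link between sequence and value was tested. ATP5MC1 lies at chr17:48892537-48892786 on the plus strand, NDUFB6 at chr9:32573160-32573409 on the minus strand and NDUFV2 at chr18:9102449-9102698 on the plus strand. These windows end at the RefSeq starts. The GENCODE starts of the 3 genes are 48892765, 32573184 and 9102630 in that order, so each window reaches into its gene by that annotation. Capitals mark CCAAT, the letters of the CCAAT box, and TGACGT, the core of the cAMP response element, searched on both strands.
ATP5MC1: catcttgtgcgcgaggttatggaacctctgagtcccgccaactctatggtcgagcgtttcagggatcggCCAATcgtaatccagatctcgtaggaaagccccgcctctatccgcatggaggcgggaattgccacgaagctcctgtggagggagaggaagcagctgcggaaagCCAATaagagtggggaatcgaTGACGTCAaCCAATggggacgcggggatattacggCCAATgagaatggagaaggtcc
NDUFB6: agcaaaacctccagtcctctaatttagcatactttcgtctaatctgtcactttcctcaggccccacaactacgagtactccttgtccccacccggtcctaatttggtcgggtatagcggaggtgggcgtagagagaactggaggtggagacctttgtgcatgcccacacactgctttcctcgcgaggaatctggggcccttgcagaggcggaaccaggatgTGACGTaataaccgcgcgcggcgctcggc
NDUFV2: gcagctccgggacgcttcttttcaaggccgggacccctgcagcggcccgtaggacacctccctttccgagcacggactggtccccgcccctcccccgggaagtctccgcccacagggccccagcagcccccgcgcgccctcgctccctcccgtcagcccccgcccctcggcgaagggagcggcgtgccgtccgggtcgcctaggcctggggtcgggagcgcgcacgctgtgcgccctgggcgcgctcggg
The ATP5MC1 window held 4 CCAAT letters, and 33.0% of 27305 promoter windows of this length held at least 1, while 0.930% held 4 or more. It also held TGACGT, read on either strand because the letters run into a palindrome, and the NDUFB6 window held TGACGT once. TGACGT was found in 7.42% of the windows. The NRF1 motif, found in 5.53% of windows, and CCGGAAG, the ETS letters found in 8.82%, were in none of the 3 windows. These motifs were chosen after the sequences had been seen, and a match is a description of letters only.

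Complex I oxidizes NADH, and its nuclear genes encode 7 core subunits, most of which carry the flavin or iron-sulfur clusters, and accessory subunits around them. The median log2 fold change of the 38 tested complex I members was -0.17 in A549, where 1 lay above 0.5 and 5 below -0.5, and -0.15 in HCC827, where 1 lay above and 6 below. Core and accessory subunits were grouped after the values had been seen, and no test of the groups was made. The 7 core subunits had medians of -0.04 in A549, which turned to 0.067 with size factors over all 4 libraries, and 0.09 in HCC827. The 31 other tested members, called accessory here and with NDUFA4 among them, had medians of -0.25 and -0.23.

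NDUFV2, a core iron-sulfur subunit of the NADH-binding module, was measured in A549 at 1178 normalized counts under myr-AKT1 and 981 under vector, and in HCC827 at 1083 and 527. The myr-AKT1 library was the higher of each pair. Its log2 fold change was 1.04 (95% interval 0.89 to 1.19) in HCC827 and 0.26 (0.14 to 0.39) in A549. A lncRNA gene on the same strand covers 28.4% of the NDUFV2 exon bases.

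The other core subunits stayed between -0.21 and 0.38. NDUFS8, which holds iron-sulfur clusters on the path to ubiquinone, lay above 0 in both lines, at 0.38 in A549 and 0.21 in HCC827. NDUFV1, the flavin-bearing subunit where NADH is oxidized, had values of -0.18 and 0.04. NDUFS3, a subunit of the arm that reaches into the matrix, had values of -0.17 and -0.21. NDUFS7, which lies near the ubiquinone site, had values of -0.09 in A549 and 0.18 in HCC827. NDUFS1, the largest subunit of the complex, lay in A549 at 4390 normalized counts under myr-AKT1 and 3957 under vector, and in HCC827 at 3093 and 3430, with log2 fold changes of 0.15 and -0.15.

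The NDUFB genes encode accessory subunits of the membrane arm, and 10 of the 11 lay below 0 in A549 and 8 of the 11 in HCC827, with medians of -0.35 and -0.26. Of all tested genes, 54.4% lay below 0 in A549 and 53.8% in HCC827. NDUFB6 was measured in A549 at 427 normalized counts under myr-AKT1 and 683 under vector, and in HCC827 at 198 and 303. The myr-AKT1 library was the lower of each pair, with log2 fold changes of -0.68 (95% interval -0.86 to -0.50) and -0.62 (-0.89 to -0.34). NDUFB1 had values of -0.35 in A549 and -0.74 in HCC827, and NDUFB2 of -0.48 and -0.62. NDUFB9 in HCC827 lay just past the fold at -0.50, and NDUFB10 in A549 just short of it, also at -0.50 after rounding. NDUFB5 was the NDUFB gene above 0 in A549, at 0.27, and had 0.16 in HCC827.

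Among the remaining accessory subunits, NDUFA1 was measured in A549 at 966 normalized counts under myr-AKT1 and 656 under vector, and in HCC827 at 755 and 678. It was the complex I member above 0.5 in A549, with a log2 fold change of 0.56 (95% interval 0.42 to 0.70), and had 0.16 (0.00 to 0.31) in HCC827. NDUFS4 lay above 0 in both lines, at 0.24 and 0.44. In A549, NDUFS6, NDUFA12, NDUFA7 and NDUFA6 lay below -0.5, at -0.65, -0.57, -0.54 and -0.51, and in HCC827 they had values of -0.42, -0.15, 0.25 and -0.34. In HCC827, NDUFA11 and NDUFA5 lay below -0.5, at -0.58 and -0.56, and in A549 they had values of -0.22 and -0.25. The NDUFA7 value rests on few reads, with a 95% interval of -0.96 to -0.13 in A549, and 32.5% of its exon bases are shared with another protein-coding gene on the same strand.

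Complex II, succinate dehydrogenase, links the chain to the TCA cycle and is encoded wholly in the nucleus. The 4 genes had medians of -0.08 in A549 and -0.07 in HCC827, and the A549 median lay above 0, at 0.027, with size factors over all 4 libraries, as did the HCC827 median, at 0.0079, with total reads as the scaling. SDHC, a membrane anchor, was measured in A549 at 3481 normalized counts under myr-AKT1 and 2451 under vector, and in HCC827 at 2111 and 1964. It was the complex II member above 0.5, with a log2 fold change of 0.51 (95% interval 0.43 to 0.58) in A549, and had 0.10 (0.01 to 0.20) in HCC827. SDHB, the iron-sulfur subunit, was measured at 2059, 2473, 2016 and 1683 in the same order of libraries, lower with myr-AKT1 in A549 and higher in HCC827, with values of -0.26 and 0.26. SDHD, the other membrane anchor, had values of -0.08 and -0.29.

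SDHA, the flavoprotein, had log2 fold changes of -0.07 in A549 and -0.25 in HCC827. Its near-identical pseudogene rows SDHAP1 to SDHAP4 held 1263 and 1450 reads in A549 and 1326 and 3741 reads in HCC827, myr-AKT1 before vector, which is 43.1%, 38.7%, 51% and 61.0% of the reads of SDHA and its pseudogenes together. With these reads added, the fold change was 0.04 in A549 and -0.58 in HCC827, so the SDHA value is uncertain. In HCC827-vector, SDHAP3 alone held 2384 reads, against 234 in HCC827-myr-AKT1. Across all members, 189 pseudogene rows of 50 parent genes held between 0.737% and 2.39% of the reads of members and pseudogenes in a library, and SDHA was the parent with more than 10% of its reads in such rows.

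Complex III passes electrons from ubiquinol to cytochrome c. Its 9 tested members had medians of 0.05 in A549 and -0.21 in HCC827, with 5 and 2 members above 0. CYC1, cytochrome c1, was measured in A549 at 3279 normalized counts under myr-AKT1 and 4777 under vector, and in HCC827 at 1518 and 1799. It lay below -0.5 in A549, at -0.54 (95% interval -0.61 to -0.48), and had -0.25 (-0.35 to -0.14) in HCC827. UQCRC2, a core subunit with no redox centre, was the tested complex III member with the highest fold change, at 8497 and 6619 normalized counts in A549 and 2843 and 2251 in HCC827, myr-AKT1 before vector. Its log2 fold changes were 0.36 (95% interval 0.31 to 0.41) and 0.34 (0.26 to 0.42), while its partner UQCRC1 had values of 0.05 and -0.22. UQCRFS1, the Rieske iron-sulfur protein, had values of 0.12 and -0.21.

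Complex IV, cytochrome c oxidase, had the highest medians of the 5 complexes as assigned by symbol, at 0.14 in A549 and 0.02 in HCC827. In either line, 0 of its 11 tested members passed 0.5 in either direction. With total reads as the scaling, COX7A2L in HCC827 lay above the fold, at 0.53, and 10 of the 11 lay above 0 in HCC827 with a median of 0.098, where 6 did before. Its share of reads was 0.125% with myr-AKT1 and 0.117% with vector in A549, and 0.120% with myr-AKT1 and 0.105% with vector in HCC827. COX7A2L, which takes part in binding complex III to complex IV, was measured in A549 at 2511 normalized counts under myr-AKT1 and 2283 under vector, and in HCC827 at 2347 and 1717. Its log2 fold changes were 0.14 (95% interval 0.05 to 0.22) and 0.45 (0.36 to 0.54). COX4I1, the regulatory subunit that binds ATP, had values of 0.24 and 0.06, COX5A of -0.10 and -0.04, and COX5B of 0.35 and 0.00. COX8A, a small membrane subunit, had the lowest A549 value, at -0.44, and 0.02 in HCC827, and a lncRNA gene shares 35.4% of its exon bases.

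The tissue-restricted isoforms of complex IV were at or near 0 reads. COX4I2, COX7A1 and COX7B2 had 0 reads in all 4 libraries, which allows up to 3 reads in each, while the common forms COX4I1, COX7A2 and COX7B held between 1251 and 6343 normalized counts. COX6A2 was measured at 5.73 normalized counts in A549-myr-AKT1 and at 0 in the other 3 libraries, beside 3314 to 5129 for COX6A1. COX6B2, known from testis, had 24 and 9 reads in A549 and 12 and 6 reads in HCC827, myr-AKT1 before vector, and made up between 0.183% and 0.932% of the reads of COX6B1 and COX6B2. COX8C had at most 1.26 normalized counts in any library.

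Complex V consists of an F1 head that makes ATP, a c ring in the membrane that turns with the proton flow, and a peripheral stalk that holds them together. Its 18 tested members had the lowest medians of the 5 complexes, at -0.20 in A549, where 14 lay below 0, and -0.26 in HCC827, where all 18 did. Below 0 lay 54.4% of all tested genes in A549 and 53.8% in HCC827. With size factors over all 4 libraries, 10 of the complex V members lay below 0 in A549 with a median of -0.093, and 17 in HCC827, where ATP5MC2 crossed 0. The complex took 0.226% of the reads with myr-AKT1 and 0.246% with vector in A549, and 0.176% and 0.204% in HCC827, lower with myr-AKT1 in both lines.

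**Figure D2:**
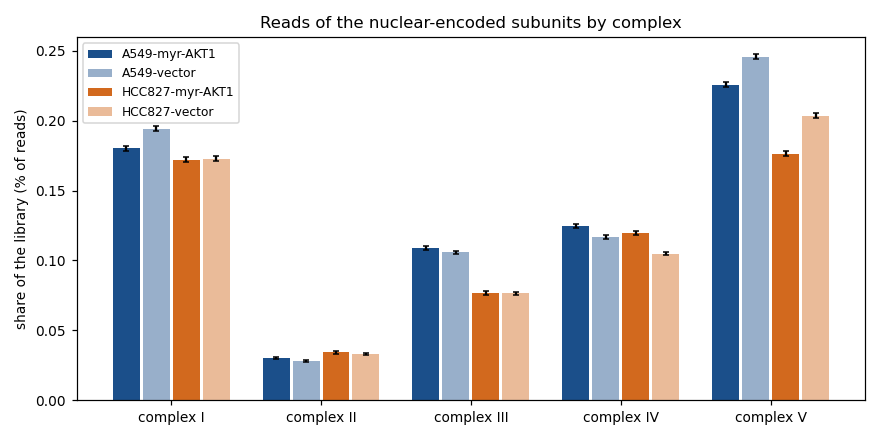
Share of each library's reads that fell on the nuclear-encoded subunits of each complex, in percent, with A549 in blue, HCC827 in orange, myr-AKT1 in full colour and vector in pale colour. Bars are 1 library each with 95% Clopper-Pearson intervals for counting error, and complex V is lower in the myr-AKT1 library of both lines while complex IV is higher.

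The subunits of complex V were also grouped by position after the values had been seen. The 5 genes of the F1 head and central stalk had medians of 0.03 in A549 and -0.16 in HCC827. These were 0.14 in A549 with size factors over all 4 libraries, where all 5 lay above 0 and 3 had before, and -0.079 in HCC827 with total reads. Of the 9 genes of the peripheral stalk and other membrane subunits, all 9 lay below 0 in both lines, with medians of -0.32 and -0.31, and 8 did in A549 with size factors over all 4 libraries. The shares of all tested genes below 0 were 54.4% in A549 and 53.8% in HCC827. The 3 genes of the c ring had medians of -0.35 and -0.38.

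In the head, ATP5F1B, the catalytic beta subunit, was measured in A549 at 19376 normalized counts under myr-AKT1 and 19621 under vector, and in HCC827 at 9554 and 11983. The A549 libraries were nearly equal, with a log2 fold change of -0.02 (95% interval -0.05 to 0.01), and the HCC827 value was -0.33 (-0.37 to -0.29). In RPKM, reads per kilobase of merged exon scaled to the depth of the library, ATP5F1B had the highest level of all members in 3 of the 4 libraries, and COX8A in HCC827-myr-AKT1. This order depends on the length used, since with the canonical transcript COX6B1, COX6A1 or ATP5MF came first in 3 libraries. ATP5F1A, the alpha subunit, had values of 0.03 and -0.12, and ATP5F1C, the rotating gamma subunit, of 0.18 and -0.15. ATP5F1D, the delta subunit of the central stalk, had 0.11 in A549 and lay below -0.5 in HCC827, at -0.55. ATP5IF1, the inhibitor that stops the enzyme from running backwards, had values of -0.09 and -0.17.

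In the peripheral stalk and membrane part, ATP5MF was measured in A549 at 2420 normalized counts under myr-AKT1 and 3929 under vector, and in HCC827 at 2710 and 3517. It was lower with myr-AKT1 in both lines, at -0.70 (95% interval -0.77 to -0.62) and -0.38 (-0.45 to -0.30). ATP5PF, coupling factor 6, had values of -0.57 and -0.31, and ATP5PB, the long b subunit of the stalk, of -0.37 and -0.54. The readthrough genes ATP5MF-PTCD1 and NDUFC2-KCTD14 held at most 4.77 and 31.4 normalized counts in any library, and 87.9% and 99.6% of their exon bases are shared with other genes on the same strand.

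The c ring is built from a single mature protein that 3 genes, ATP5MC1, ATP5MC2 and ATP5MC3, encode with different import signals. ATP5MC1 was measured in A549 at 2157 normalized counts under myr-AKT1 and 3927 under vector, and in HCC827 at 702 and 1035. It was lower with myr-AKT1 in both lines and had the lowest mean fold change of the 80 tested members, at -0.86 (95% interval -0.94 to -0.79) and -0.56 (-0.71 to -0.42). ATP5MC2 had values of -0.35 and -0.03, and ATP5MC3 of 0.07 and -0.38. Summed over the 3 genes, the c subunit mRNA was 8404 against 11142 normalized counts in A549 and 3816 against 4631 in HCC827, with log2 fold changes of -0.41 (-0.45 to -0.37) and -0.28 (-0.34 to -0.22). ATP5MC1 made up 25.7% of these reads with myr-AKT1 and 35.2% with vector in A549, and 18.4% with myr-AKT1 and 22.3% with vector in HCC827.

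The last 90 coding bases of ATP5MC1, at chr17:48895680-48895769 on the plus strand, and of ATP5MC2, at chr12:53665314-53665403 on the minus strand, are printed from GRCh38 to show where reads of genes for the same protein can be told apart, with the 10 bases that differ in capitals.
ATP5MC1: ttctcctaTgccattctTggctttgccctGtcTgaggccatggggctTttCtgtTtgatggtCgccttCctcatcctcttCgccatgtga
ATP5MC2: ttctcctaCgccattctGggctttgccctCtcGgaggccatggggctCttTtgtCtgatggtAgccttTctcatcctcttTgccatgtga
Both genes encode the same last 77 residues, and over the 234 bases of that stretch with its stop codon they differed at 27, an identity of 88.5%. The fold change of ATP5MC1 was -0.86 in A549 and -0.54 in HCC827 with the reads of its 8 pseudogene rows added.

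**Figure D3:**
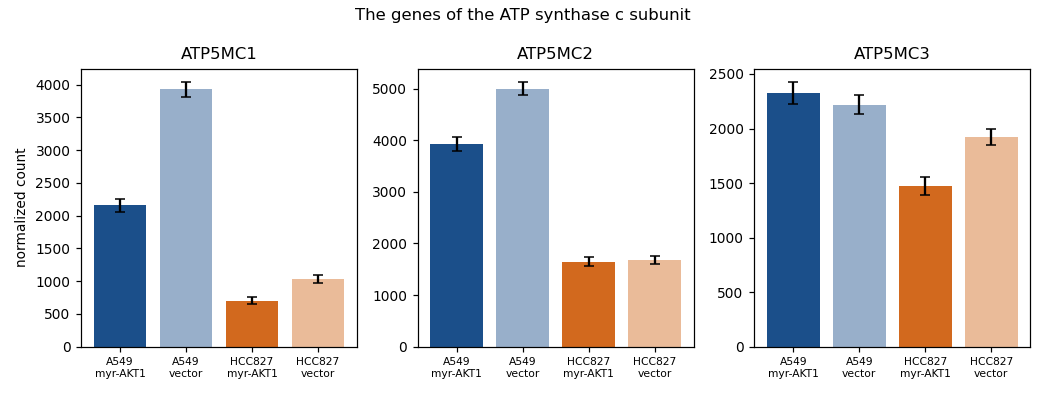
Normalized counts of ATP5MC1, ATP5MC2 and ATP5MC3, the genes of the ATP synthase c subunit, in the 4 libraries, with A549 in blue, HCC827 in orange and vector in pale colour. Bars are 1 library each with 95% Poisson counting intervals, and ATP5MC1 is lower in the myr-AKT1 library of both lines, at -0.86 and -0.56 on the log2 scale.

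Other isoform pairs held few reads in their minor form. UQCRHL, an intronless copy of the complex III hinge gene UQCRH, was measured in A549 at 44.7 normalized counts under myr-AKT1 and 14.8 under vector, and in HCC827 at 51.6 and 30.2, or at most 1.78% of the reads of the pair. Reads of these near-identical genes can be split between them, so the UQCRHL values are uncertain. UQCRH itself had log2 fold changes of -0.24 and -0.10. NDUFA4L2, a paralog known as a hypoxia-responsive gene, was measured at 13.7, 23.6, 45.3 and 20.7 normalized counts in the same order of libraries, lower with myr-AKT1 in A549 and higher in HCC827. Its log2 fold change was -0.78 (95% interval -1.89 to 0.25) in A549 and 1.13 (0.36 to 1.92) in HCC827, while NDUFA4 had values of -0.38 and -0.41.

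Set side by side over the lines, 42 of the 80 members lay below 0 in both, 15 above 0 in both and 23 on opposite sides. Of the 12053 genes tested in both lines, 39.8% lay below 0 in both, 27.7% above 0 in both and 32.5% on opposite sides. The 2 members below -0.5 in both lines compare with 13.2% of all genes, and 0 members above 0.5 in both with 9.41%. Across the members Pearson's r between the fold changes was 0.53 and Spearman's rho 0.52 (n = 80 genes), beside 0.52 and 0.49 over all 12053 genes. Genes are not independent replicates, and each axis rests on the same 2 libraries for every gene.

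**Figure D4:**
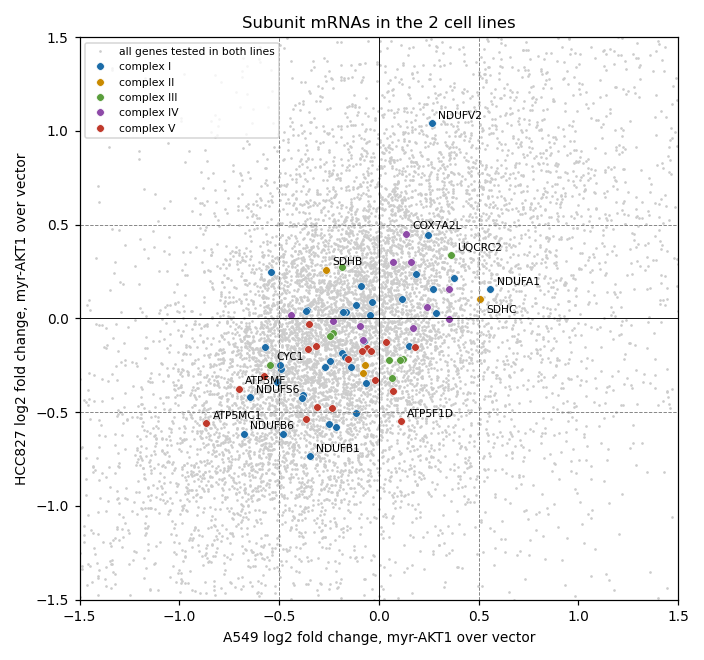
Log2 fold change, myr-AKT1 over vector, in A549 (horizontal) and HCC827 (vertical), with members coloured by complex over the genes tested in both lines in grey and dashed lines at 0.5 and -0.5. Genes past 1.5 in either line, or with 0 reads in any library, are not drawn, and the members sit near the centre of the grey points with ATP5MC1 and NDUFB6 in the lower left corner and NDUFV2 at the top.

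With the cell lines as the only repeats, a limma fit to log2(normalized count + 1), blocked by line, called 0 of 84 members higher and 0 lower at an adjusted p of 0.05, where it called 1.29% of 19314 genes higher and 1.73% lower. This fit has 1 residual degree of freedom. At an unadjusted p of 0.05, 2 of 84 members passed in limma, where 3557 of 19314 genes did. These members were ATP5MC1 (log2 fold change -0.71, SE 0.26, lower in 2 of 2 lines, limma adjusted p = 0.195) and COX6B2 (1.58, SE 0.67, higher in 2 of 2 lines, limma adjusted p = 0.263). NDUFV2 had a limma adjusted p of 0.311 and NDUFB6 of 0.367. The edgeR quasi-likelihood test and the DESeq2 Wald test on the recovered reads also called 0 members. Of 19314 genes, edgeR called 196 higher and 228 lower, and DESeq2 621 and 518. At an unadjusted p of 0.05, 1 member passed in each, where 3225 genes passed in edgeR and 2683 in DESeq2. ATP5MC1 had adjusted p-values of 0.269 in edgeR and 0.262 in DESeq2, and over all alternatives they ran from 0.192 with a wider limma filter to 1 in limma with no block.

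The lists of genes around the chain were set beside the members as counts and medians. The mitochondrial ribosomal proteins, which translate the mitochondrially encoded subunits, had medians of -0.54 in A549 and -0.39 in HCC827, with 46 of 78 and 28 of 77 genes below -0.5 and none above 0.5. All 78 lay below 0 in A549, and 75 did with size factors over all 4 libraries. In HCC827, 69 of 77 lay below 0, and 63 did with total reads as the scaling. Below 0 lay 54.4% of all tested genes in A549 and 53.8% in HCC827. The cytosolic ribosomal proteins had medians of -0.50 and -0.32, with 44 of 85 and 13 of 84 below -0.5. Above 0.5 lay 0 of them in A549 and 1 in HCC827. The shares of all tested genes below -0.5 were 23.5% in A549 and 26.3% in HCC827, and 22.4% lay above 0.5 in each line. The HCC827 count of cytosolic ribosomal proteins below -0.5 was thus under the share of all genes. Both lists lay lower than the respiratory chain members, whose medians were -0.11 and -0.15.

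**Figure D5:**
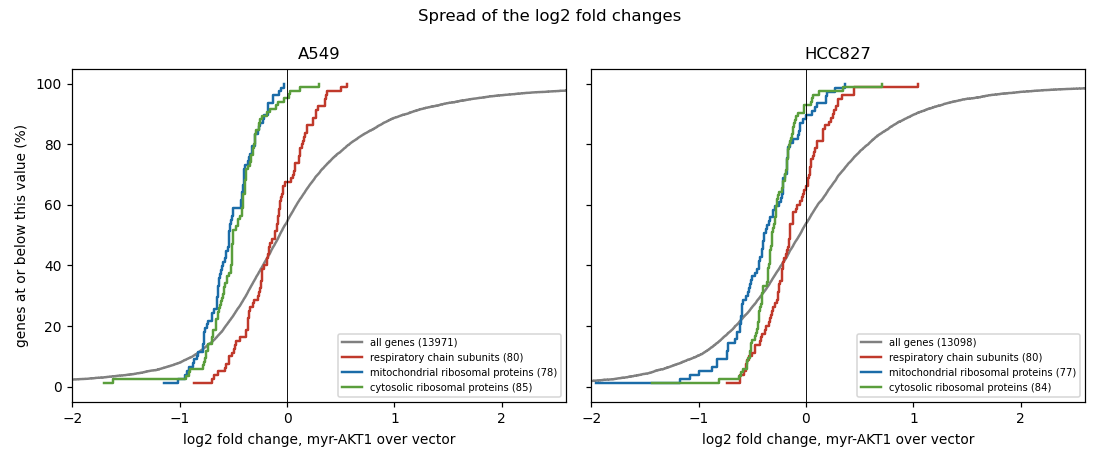
Cumulative share of genes, in percent, at or below each log2 fold change (myr-AKT1 over vector) in A549 and HCC827, for all tested genes, the respiratory chain members and the mitochondrial and cytosolic ribosomal proteins, with the number of tested genes in the key. The members rise steeply close to 0, whereas the ribosomal lists rise to the left of them.

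The 13 mitochondrially encoded subunits, which join the members in complexes I, III, IV and V, all lay below 0 in A549, with a median of -0.28 and 5 genes below -0.5. In HCC827 their median was -0.42, with 5 genes below -0.5 and 3 above 0.5, from -2.08 for MT-CO3 of complex IV to 1.48 for MT-ND5 of complex I. Of all tested genes, 23.5% in A549 and 26.3% in HCC827 lay below -0.5, and 22.4% in each line above 0.5. The share of reads of the 13 subunits was 1.77% with myr-AKT1 and 2.25% with vector in A549, and 0.936% with myr-AKT1 and 1.51% with vector in HCC827. The ratio between mitochondrial and nuclear subunit reads thus was lower with myr-AKT1 in both lines.

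Of 54 assembly factors, 2 lay above 0.5 and 15 below -0.5 in A549 (median -0.30), and 2 above and 13 below in HCC827 (median -0.13, or -0.050 with total reads). Of all tested genes, 23.5% in A549 and 26.3% in HCC827 lay below -0.5, and 22.4% in each line above 0.5. COX20, which helps insert a core subunit of complex IV, was measured in A549 at 871 normalized counts under myr-AKT1 and 1843 under vector, and in HCC827 at 230 and 700, with log2 fold changes of -1.08 and -1.60. COA7, another complex IV factor, had values of -1.35 and -1.29, and BCS1L, which inserts the Rieske protein into complex III, of -1.40 and -0.62. SURF1, a further complex IV factor, had values of 0.70 and 0.19.

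Among regulators of mitochondrial biogenesis, 8 of 16 lay below -0.5 and 1 above 0.5 in A549, and 7 of 15 below and 1 above in HCC827, with medians of -0.41 and -0.44. The shares of all tested genes were 23.5% and 26.3% below -0.5, and 22.4% above 0.5 in each line. The regulator above 0.5 was PPARGC1A in A549, at 0.68, and POLG in HCC827, at 0.72. TFAM, the factor that packages mitochondrial DNA and starts its transcription, was measured in A549 at 1502 normalized counts under myr-AKT1 and 3798 under vector, and in HCC827 at 966 and 2394. Its log2 fold changes were -1.34 (95% interval -1.43 to -1.25) and -1.31 (-1.42 to -1.19). POLRMT, the mitochondrial RNA polymerase, had values of -1.03 and -0.52. PPARGC1A, the coactivator PGC-1 alpha, was measured at 1238 against 773 normalized counts in A549 and had 0 reads in both HCC827 libraries.

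Of 24 genes of ubiquinone synthesis and of electron and nucleotide carriers, 1 lay above 0.5 and 10 below -0.5 in A549, and 1 above and 8 below in HCC827. Of all tested genes, 22.4% lay above 0.5 in each line, and 23.5% in A549 and 26.3% in HCC827 below -0.5. The medians of the list were -0.30 and -0.31, and its highest values were 0.99 for ETFB in A549 and 1.99 for UCP2 in HCC827. COQ2 and PDSS1, enzymes of ubiquinone synthesis, had values of -1.34 and -1.29 in A549 and -1.22 and -2.13 in HCC827, and CYCS, the somatic cytochrome c, of -0.32 and -0.59. The 18 genes of the TCA cycle and pyruvate dehydrogenase stayed near the members, with medians of -0.04, which turned to 0.059 with size factors over all 4 libraries, and -0.10, and had 2 above 0.5 and 0 below -0.5 in A549 and 1 above and 3 below in HCC827.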

How the data were processed

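RNA of 4 cultures, 1 per condition, was sequenced. The authors trimmed adapters, aligned to hg38 by Bowtie2 and counted reads of Ensembl genes by HTSeq. RPKM is the unit the methods give, but the deposited signal was found to be reads over 1 size factor for each library, with no division by length. Reads were recovered from the deposited values, and all values with reads were whole within 0.001 of a read except 1 in each vector library. Bowtie2 does not split reads over introns, so reads on exon junctions can be lost or placed on processed pseudogenes. The labels describe removal of ribosomal RNA and the methods selection of polyadenylated RNA.

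Genes were named from GENCODE v44 on GRCh38 (60261 of 60558 matched). Members and lists were chosen with earlier results of these data known. A tested gene averaged 50 or more normalized counts over a pair. Log2 fold changes carry no pseudocount. Their 95% intervals are Clopper-Pearson intervals on the recovered reads. The fit over both lines used limma with trend on log2(value + 1) because the files hold normalized values, and edgeR's quasi-likelihood test and DESeq2 were run on the recovered reads. P-values were adjusted by the Benjamini-Hochberg method over all genes kept. The code of the fits was run on simulated counts with changes larger than those of any tested member. That run does not measure how well changes as small as these are found. The genes named were, per complex, the highest and the lowest by mean fold change, those past 0.5 or -0.5 in both lines, the core subunits, isoform groups, genes of the lists that a result turns on and label checks. NDUFA, NDUFB and ATP5 genes past the fold in 1 line, and NDUFB5, NDUFB10, NDUFS4, UQCR10, UQCRB, UQCRQ and SDHAP3, were named after their values had been seen. RefSeq promoters matched 71 of 91 members, so no count over the members was made. The values of 1 member are not reported here by name.

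Alternatives were TMM, total reads or size factors over all 4 libraries, a pseudocount, filters on level, a threshold of 1, added pseudogene reads, other tools and no block. Tables were made in Python 3.11.15 with pandas 2.3.3, scipy 1.17.1 and matplotlib 3.10.9, and fits in R 4.3.3 with DESeq2 1.42.0, edgeR 4.0.16 and limma 3.58.1.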

Additional observations from a re-analysis of the deposited data

Results flagged for a closer look

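For 7 members the counting intervals excluded 0 in both lines with opposite signs, which is 8.75% of the 80 tested members, beside 16.9% of the 12053 genes tested in both lines. This compares 1 pair of libraries per line, and no test of the lines against each other was made. Lower with myr-AKT1 in A549 and higher in HCC827 were SDHB, with log2 fold changes of -0.26 and 0.26, and UQCR10, a small subunit of complex III, with -0.18 and 0.28. Higher in A549 and lower in HCC827 were NDUFS1 with 0.15 and -0.15, UQCRB with 0.064 and -0.32, UQCRFS1 with 0.12 and -0.21, UQCRQ with 0.11 and -0.22, and ATP5F1C with 0.18 and -0.15. Thus 4 of the 7 belong to complex III. With total reads as the scaling 9 members met this and with size factors over all 4 libraries 10 did, without NDUFS1 and ATP5F1C in the first and without UQCR10 and ATP5F1C in the second, beside 17.3% and 16.6% of all genes. With TMM factors 10 members did, including these 7, beside 16.8% of all genes.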

How the results depend on the processing

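No value past the fold changed direction under any alternative that was run, but this says little about how far the results hold. The largest shift from a scaling was 0.10 on the log2 scale, too small to carry a value past 0.5 or -0.5 across 0. Filters and thresholds leave the values themselves unchanged. Signs of smaller values did change, and with size factors over all 4 libraries 41 members lay below 0 in A549, where 54 had before. With total reads as the scaling, 3 members lay above 0.5 and 4 below -0.5 in HCC827, where 25.5% and 23.1% of all tested genes did. With size factors over all 4 libraries, 4 members lay below -0.5 in A549, where 18.4% of all tested genes did. The A549 medians were then -0.012 for the members, -0.072 for complex I, 0.027 for complex II, 0.15 for complex III, 0.24 for complex IV and -0.093 for complex V. With a mean of at least 10, 4 members lay above 0.5 in A549 and 3 in HCC827, and with at least 1 read in both libraries 6 and 4 did, since the rarely detected isoforms then enter. At a threshold of log2 1, 0 members lay above or below in A549 and 0 below in HCC827, where NDUFV2 lay above at 1.04. No share of all genes is given here for this threshold, for a mean of at least 10 or for at least 1 read in both libraries. With a mean of at least 500, chosen after seeing the data, 5 members lay below -0.5 in HCC827, where 25.9% of 7691 genes did. Against protein-coding genes alone, the shares of all genes above 0.5 and below -0.5 were 21.6% and 23.5% in A549 and 21.9% and 26% in HCC827. The limma calls of 0 members stayed at 0 under edgeR, DESeq2, a pseudocount of 0.5 and another filter. With DESeq2 size factors, edgeR called only 42 of 19314 genes higher and 57 lower. Limma called 112 and 191 with a pseudocount of 0.5, and 1101 and 894 of 33056 genes with the wider filter. With no cell line block, 0 of 19314 genes were called, so that setting could not call a member.

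The fit over both lines pairs myr-AKT1 with vector by cell line. Within a line no paired analysis was possible because the labels give no replicate numbers and each condition has 1 library, which also leaves no library to leave out.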
